A study of Zea mays with 448 samples.

Results

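Sites private to one teosinte inbred are positions at which a single teosinte line carries an allele that was listed in no cross of any other teosinte line. They were found by position: a site was kept when it was listed in the F1 counts of all crosses of TIL01, TIL03, TIL09, TIL11, TIL14 or TIL25 and in no cross of another teosinte inbred, with Mo17xTIL25 and CML103xTIL25 left out. No expression value entered the choice. Of 507601 positions listed in any F1 cross used, 74642 were private by this rule, in 22017 genes. TIL25 held 24365 of them, TIL09 12834, TIL01 10563, TIL11 10530, TIL03 8507 and TIL14 7843. The rule asks for all crosses of a line, and TIL25 had 3 crosses where the other lines had 4 or 5, so these counts depend on the number of crosses. Positions listed in any cross of that line alone numbered 43592, 35719, 22464, 28521, 24359 and 20275 in the same order. The comparison set for each line was the sites listed in all of its crosses and in crosses of 3 or more teosinte inbreds, called shared sites here, which numbered 21062 in TIL25, 11043 in TIL09, 11346 in TIL01, 8677 in TIL11, 7965 in TIL03 and 7810 in TIL14.

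In an F1 hybrid both alleles of a gene sit in one nucleus and meet the same trans-acting factors. An unequal share of reads from the maize and the teosinte allele is therefore the usual measure of cis regulatory difference, and a ratio that changes from tissue to tissue is the usual sign of cis regulation that depends on the tissue. An allele carried by 1 line alone can mark a change on that line's own haplotype, whereas an allele carried by several lines is more often older.

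RNA was sequenced from ear, leaf and stem (the stem samples hold the shoot apical meristem) of F1s between maize inbreds (B73, CML103, Ki3, Mo17, Oh43 and W22) and teosinte inbreds, and from the inbred parents. The crosses were B73, Mo17, Oh43 and W22 by TIL01; B73, CML103, Ki3, Oh43 and W22 by TIL03 and by TIL11; B73, Ki3, Mo17 and Oh43 by TIL09; B73, CML103, Ki3, Mo17 and W22 by TIL14; and B73, Oh43 and W22 by TIL25. Ear samples of F1s came from single ears, and leaf and stem samples from seedlings. The 26 crosses gave 154 libraries, 98974 to 739910 reads each at private sites (median 230178), and no ear library for 1 cross of TIL01. A cross shares its teosinte parent with the other crosses of that line and its maize parent with crosses of other lines, so crosses are not independent samples of maize or teosinte. Each teosinte line is a single inbred. That a site is not listed for another inbred can mean that this inbred carries the B73-type allele or that the position did not pass the coverage filter there.

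The leaf and ear labels were checked on marker genes, and a check of the stem label is not reported here. The summed level of 5 leaf genes (the Rubisco small subunit genes ssu1 and ssu2 and the C4 genes pep1, ppdk1 and me3) ran from 1071 to 51250 rpm (library reads scaled to a common total) in the 51 leaf libraries and from 0.529 to 309 in the ear and stem libraries, with no overlap. The 4 ear genes zag1, ra1, zfl1 and zfl2 had a median of 24.6 rpm in ear and 0 in leaf and stem, but 12 of 53 ear libraries had no read of them and a stem library reached 13.4 rpm, so ear and stem overlapped. For 1 Oh43xTIL11 library the label and a table of the study name different tissues, and the label was used. Without that library the stem difference between private and shared share, described below, was -1.11 points against -1.10 with it.

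Private alleles resembled shared alleles in kind. Single-base differences made up 91.7% to 93.7% of private sites and 90.2% to 91.3% of shared sites, and the rest were small indels. A typical gene with a private site held 1 of them, and 51.5% of the genes of TIL25 and 63.2% to 68.3% of the genes of the other lines held exactly 1. Private sites were somewhat less deeply read, with a median of 137 to 234 reads over all libraries of a line against 178 to 276 at shared sites, and 16.5% to 18.4% of them had no read at all against 13.3% to 14.7%. Sites with no other listed site within a read length of 88 bases made up 29.2% to 35.4% of private and 36.7% to 40.2% of shared sites. All maize partners of a line carried the B73 base at 99.94% to 99.99% of private sites and at 97.1% to 98.1% of shared sites. 

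Private alleles were unevenly placed on chromosome 1. From 65000001 to 115000000 (AGPv2), they made up 12.8% of the listed sites of TIL01, 13.6% of TIL11, 11.8% of TIL14 and 19.2% of TIL25, but 60.1% of those of TIL03 and 55.8% of TIL09. On the rest of chromosome 1 the share was 40.6% to 47.3% in all 6 lines. The bounds of this stretch were set by hand after the positions were seen, so these shares are a description and have no test.

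Private alleles exposed 3 libraries that stand apart, all labelled B73xTIL01. In the library labelled leaf replicate 1 the private TIL01 allele took 1.22% of reads at private sites and 23.6% at shared sites, and in the library labelled stem replicate 2 it took 1.36% and 23.8%. In the library labelled ear replicate 1 the values were 22.04% and 34.9%. The other replicate of each tissue had 49.9% (ear), 49.7% (leaf) and 49.4% (stem) at private sites.

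Sites that TIL01 shares with exactly 1 other teosinte inbred set these libraries apart further. At sites listed for TIL01 and TIL25 alone the teosinte allele had 43.8% of reads in the leaf library and 46.6% in the stem library, but 0.939% to 6.80% at the sites shared with any of the 7 other lines. The ear library had 50.5% at the TIL25 sites and 20.1% to 24.7% at the others. Over the other 151 libraries and all such pairs with 2000 reads or more, the share was 40.2% to 57.6% with a median of 49.4%. The libraries were not moved to another group, and the main comparisons over the 6 lines are given with and without them.

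**Figure D1:**
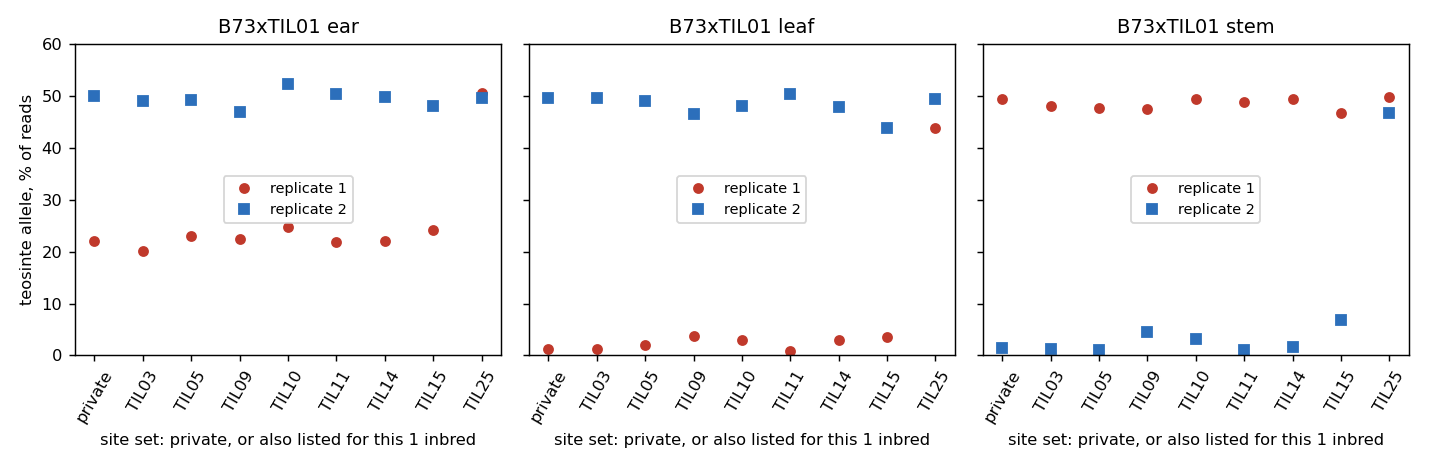
Share of reads from the teosinte allele (y axis, percent) in the 6 B73xTIL01 libraries, 1 panel per tissue, at sites private to TIL01 and at sites listed for TIL01 and 1 other teosinte inbred (x axis); each point is 1 library. Leaf replicate 1 and stem replicate 2 lie at 0.939% to 6.80% for every other line but reach 43.8% and 46.6% at the TIL25 sites, and ear replicate 1 lies at 20.1% to 24.7% but reaches 50.5%.

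The teosinte allele took slightly fewer reads than the maize allele at private sites. With all libraries, its share was also lower there than at shared sites. Without the 3 libraries that stand apart, TIL01 went the other way in ear (private minus shared 0.50 points) and leaf (0.10 points). The paper saw no significantly greater maize excess in B73 crosses, but states that its method is unlikely to remove alignment bias fully. The paper therefore does not exclude an artifact. Whether alignment bias lowers the private share was not tested. In ear, the private share averaged 48.2% ± 0.545 (SD, n = 4 crosses) in TIL09, 48.6% ± 1.41 (n = 5) in TIL11, 49.1% ± 0.975 (n = 5) in TIL03, 49.4% ± 0.595 (n = 5) in TIL14 and 49.0% ± 0.637 (n = 3) in TIL25. In TIL01 ear it was 44.98% ± 7.83 (n = 3), and 49.6% ± 0.917 without the library that stands apart. In leaf and stem TIL09 was at 47.3% ± 1.21 and 47.5% ± 0.852 (n = 4), while TIL03, TIL11, TIL14 and TIL25 were at 48.9% to 49.2% in leaf and at 49.1% to 49.7% in stem.

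Private minus shared share was below 0 in all 6 lines and all 3 tissues. The mean over lines was -1.06 percentage points in ears, -1.30 in leaves and -1.10 in stems, with an SD over lines of 0.424, 0.765 and 1.02. An exact two-sided sign-flip permutation test over the 6 lines gave p = 0.03125 in each tissue, also after Benjamini-Hochberg adjustment over the 3 tissues, which is the smallest p that 6 lines can give. Without the 3 libraries the means were -0.67, -0.82 and -0.63 points, TIL01 moved to 0.50 in ears, 0.10 in leaves and -0.25 in stems, and the adjusted exact permutation p was 0.0625 in each tissue. Without all B73xTIL01 libraries the means were -0.72 in ears (adjusted exact permutation p = 0.0625), -0.84 in leaves and -0.65 in stems (adjusted exact permutation p = 0.0469 in both). Without replicate 1 of each cross they were -0.64, -0.78 and -1.62, with adjusted exact permutation p-values of 0.125, 0.0938 and 0.0938. Whether the difference passed the threshold of 0.05 thus depended on the libraries kept.

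The same sign was seen in most single libraries. The private share was below the shared share in 134 of 154 libraries, and in 131 of 151 without the 3 libraries, where the difference ran from -3.07 to 1.15 points with a median of -0.69. All libraries of TIL09 and TIL25 were below 0, as were 10 of 10 TIL11 libraries in ear and stem. Libraries of 1 cross share parents, so these counts have no test.

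**Figure D2:**
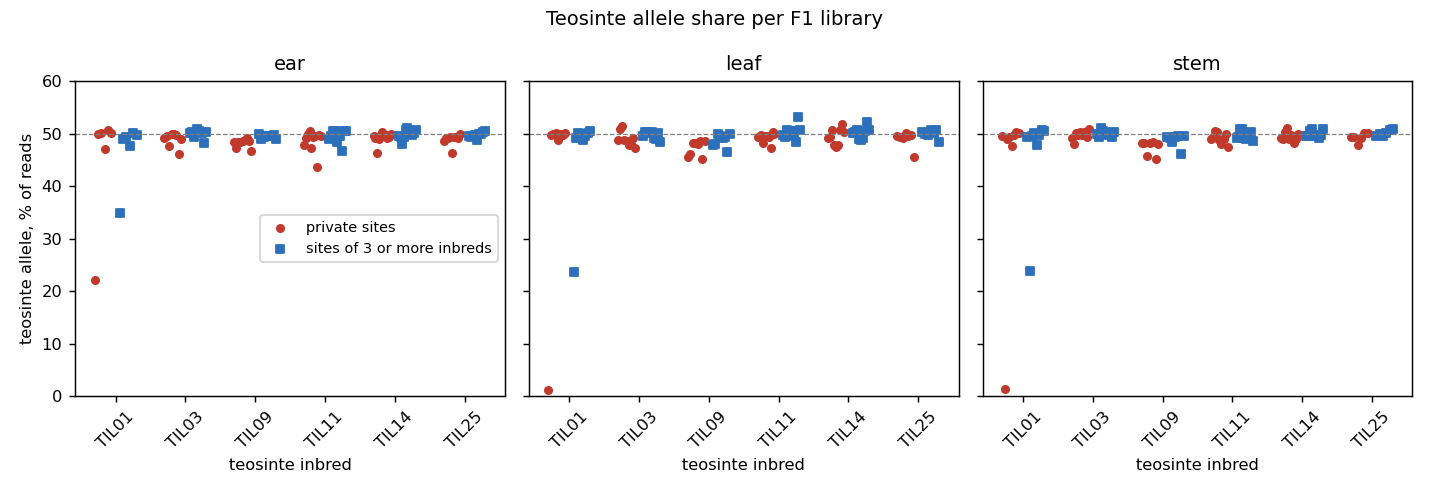
Share of reads from the teosinte allele (y axis, percent) in each of the 154 F1 libraries at private sites (circles) and at shared sites (squares), by teosinte inbred (x axis) and tissue (panels); the dashed line marks equal alleles. Apart from 3 TIL01 libraries at 1.22%, 1.36% and 22.04% for private sites, the points lie near 50%, with the private points of TIL09 the lowest as a group.

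Within genes that held both kinds of site the difference was of the same size. The depth-weighted mean over genes was -0.98 points in ears, -1.24 in leaves and -0.98 in stems, and the exact permutation test gave an adjusted p of 0.0625 in each. It was -0.63, -0.79 and -0.52 points without the 3 libraries (adjusted p = 0.0938 in each, exact permutation test). With all libraries TIL03 in stem (0.08) and TIL14 in leaf (0.08) were the lines not below 0. The between-line F statistic of the difference had an adjusted permutation p of 0.927 in every tissue with all libraries. Without the 3 libraries it was 6.12 in ears (adjusted p = 0.00258, permutation test), 2.66 in leaves (adjusted p = 0.0546) and 4.03 in stems (adjusted p = 0.0163). Without the B73 crosses it was 2.49, 1.59 and 3.17, with adjusted permutation p-values of 0.134, 0.221 and 0.121.

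In the inbred parents no shift passed the test. The log2 ratio of teosinte to maize parent reads at private sites minus that at shared sites averaged -0.02 in ears, -0.02 in leaves and -0.04 in stems, and the exact permutation test over 6 lines gave adjusted p-values of 0.344, 0.344 and 0.188. Parents and F1s were not tested against each other.

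The size of the private deficit moved with the index sequence of the library. Over the 151 libraries the median difference ran from -1.78 points for the lowest of 14 indexes (13 libraries) to -0.32 for the highest (11 libraries), and the medians of all 14 indexes were below 0. The between-index F statistic was 4.74, with permutation p = 2e-05 when values were permuted within tissue and p = 1e-05, the smallest that 100000 draws can give, when they were permuted within line and tissue. For sequencing pool the F statistic was 0.521 (permutation p = 0.946). These permutations took libraries as independent. Libraries of 1 cross share parents, and some crosses carry the same index in several libraries, so the p-values do not allow for the cross. Without the libraries of the lowest index and the 3 libraries, the means were -0.56, -0.72 and -0.57 points. The part of the index in the deficit was not tested.

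**Figure D3:**
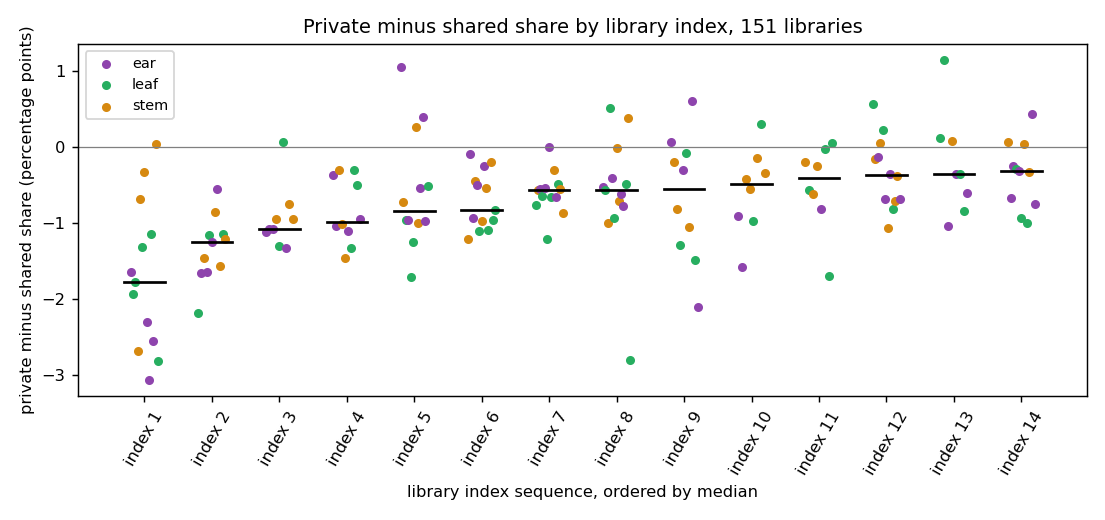
Private minus shared teosinte share (y axis, percentage points) in each of 151 libraries, colored by tissue and grouped by library index sequence (x axis, 14 indexes ordered by median); bars are medians. Medians rise from -1.78 to -0.32 and all lie below the zero line.

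Some private sites had almost no reads of the teosinte allele. They are called nearly absent here when the allele took under 3% of at least 50 reads. Summed over tissues and without the 3 libraries, 177 of 7921 private sites of TIL09 (2.23%) were of this kind, 95 of 7017 in TIL11 (1.35%), 171 of 15198 in TIL25 (1.13%), 59 of 5192 in TIL14 (1.14%), 47 of 5509 in TIL03 (0.853%) and 51 of 6466 in TIL01 (0.789%). At shared sites the range was 0.576% (TIL11) to 1.45% (TIL09). Private minus shared averaged 0.35 percentage points in ears, 0.37 in leaves and 0.28 in stems, with adjusted p-values of 0.0938, 0.0625 and 0.0625 in the exact permutation test over 6 lines. It averaged 0.346, 0.351 and 0.262 points without the 3 libraries (adjusted p = 0.0938 in each, exact permutation test). For the maize allele the difference was -0.10, -0.11 and -0.08 points, with adjusted p-values of 0.0625 to 0.25 in the same exact test. With a minimum of 20 reads the differences for the teosinte allele were 0.468, 0.481 and 0.424 points and passed (adjusted p = 0.0469, exact permutation test).

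The teosinte parent itself had no reads at most of these sites. TIL09 had 0 reads in its own libraries at 89.3% of its nearly absent private sites, TIL14 at 89.8%, TIL11 at 87.4%, TIL03 at 83.0%, TIL25 at 81.9% and TIL01 at 80.4%. At the remaining private sites the parent had 0 reads at 0.421% to 0.860%. Nearly absent shared sites were alike, with 0 parent reads at 50.0% (TIL01) to 82.1% (TIL14) of them. Missing parent reads were therefore not particular to private sites. Reads of the allele were thus missing in the parent as well as in its F1s, although listing needed coverage of the site in DNA reads of both parents. The cause was not tested.

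**Figure D4:**
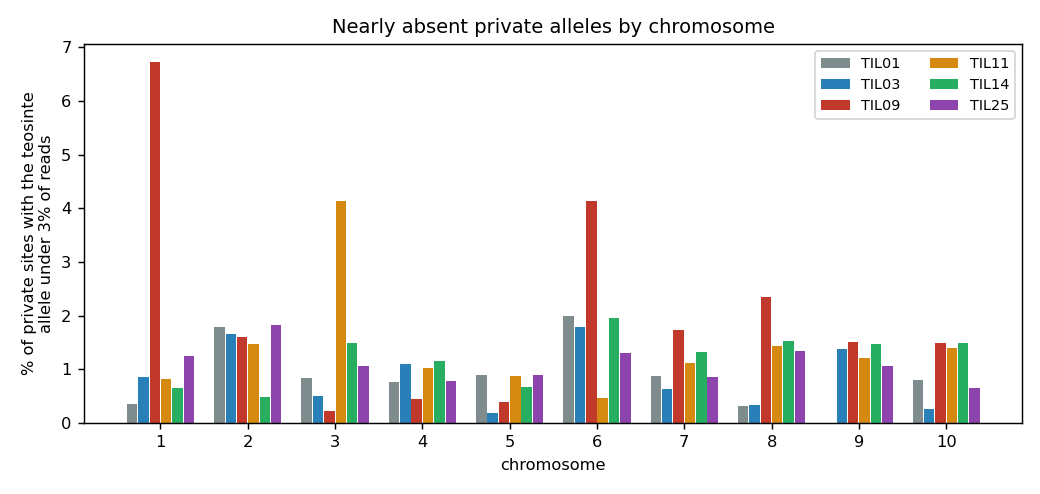
Percent of private sites with at least 50 reads at which the teosinte allele had under 3% of reads (y axis), by chromosome (x axis) and teosinte inbred (color), tissues summed and without the 3 libraries. TIL09 stands at 6.73% on chromosome 1 and 4.13% on chromosome 6, and TIL11 at 4.14% on chromosome 3.

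A single stretch of chromosome 1 held 79 of the 177 TIL09 cases. A run of 7 adjacent windows of 5 Mb, from 175000001 to 210000000, placed them in 45 genes, and they were 62.7% of the 126 private TIL09 sites there. TIL09 plants gave 0 reads at 73 of the 79 sites, and over all 79 sites the parent gave 10 reads where its maize partners gave 84907. Across the 24 TIL09 libraries the private share in the stretch was 7.08% to 18.1% (median 14.5%), and the shared share 38.7% to 44.9% (median 41.8%). The stretch was chosen for its nearly absent private sites, so a low private share there follows from the choice. Of 314 other listed sites in it with at least 50 reads, 53 were nearly absent too. The 4 crosses did not separate, with 13.7% in B73xTIL09, 14.0% in Ki3xTIL09, 13.1% in Mo17xTIL09 and 13.4% in Oh43xTIL09.

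The other windows with 5 or more such sites were TIL09 chromosome 6 from 145000001 to 150000000 and chromosome 8 from 160000001 to 165000000 (11 of 38 private sites each), TIL11 chromosome 3 from 225000001 to 235000000 (20 of 52) and TIL25 chromosome 1 from 155000001 to 160000000 (6 of 22) and from 275000001 to 280000000 (5 of 85). These windows and the run on chromosome 1 were chosen for their values, so they have no test. Other listed sites were nearly absent there too, 11 of 49 in the TIL09 window of chromosome 6 and 18 of 44 in that of chromosome 8. In TIL11 they were 7 of 43, and in TIL25 0 of 30 and 3 of 88. The shared share lay below the private share on TIL09 chromosome 8 (30.1% against 37.5%) and in TIL11 (37.7% against 41.6%). It lay above the private share in the other windows. Without all 13 windows and the 3 libraries the private minus shared difference of TIL09 was -0.82 points in ears, -0.58 in leaves and -0.57 in stems, where it had been -1.27, -1.44 and -1.34. The between-line F statistic was then 0.651 in stems (adjusted permutation p = 0.665) and 4.67 in ears (adjusted permutation p = 0.0136). The excess of nearly absent teosinte alleles at private over shared sites averaged 0.160, 0.183 and 0.100 points without these windows (adjusted exact permutation p = 0.141 in each). In leaf TIL09 then stood at 0.298 points, below TIL11 at 0.320. The windows were chosen for nearly absent private sites, and 9 of the 13 are in TIL09. Smaller differences without them thus follow in part from the choice, and these p-values cannot decide whether lines differ.

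Among single sites, the quasi-likelihood test of edgeR, at a Benjamini-Hochberg adjusted p of 0.005, called 3448 of 46076 private sites unequal in ears, 2428 of 43302 in leaves and 2534 of 45205 in stems. These are 7.48%, 5.61% and 5.61% of tested private sites. Over all sites listed in all crosses of a line the shares were 7.54% in ears, 5.42% in leaves and 5.6% in stems, and over shared sites 7.55%, 5.22% and 5.30%, so private sites were called about as often as the background. The maize allele was higher at 2337 of the private calls in ears, 1683 in leaves and 1727 in stems, and the teosinte allele at 1111, 745 and 807.

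Direction leaned toward maize at private sites. Of tested private sites 5.07% in ears, 3.89% in leaves and 3.82% in stems were called with the maize allele higher, where all sites gave 4.88%, 3.57% and 3.68%, and 2.41%, 1.72% and 1.79% with the teosinte allele higher, where all sites gave 2.66%, 1.85% and 1.92%. Shared sites had 4.62%, 3.22% and 3.34% with maize higher and 2.93%, 2.00% and 1.96% with teosinte higher. Without the 3 libraries the maize allele was higher at 5.20%, 4.24% and 4.23% of private and 4.81%, 3.68% and 3.92% of shared sites, and the teosinte allele at 2.51%, 1.99% and 2.04% of private and 3.01%, 2.32% and 2.29% of shared sites. The difference between private and shared shares of calls was not tested.

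By line, private sites were also called about as often as all sites of that line. TIL01 had few calls with all libraries, 48 in ear (0.78% of tested private sites, against 0.98% of all sites), 15 in leaf (0.248% against 0.308%) and 8 in stem (0.124% against 0.206%). Without the 3 libraries it had 136 (2.29% against 2.5%), 276 (4.67% against 5.05%) and 302 (4.78% against 5.29%). Ear calls numbered 291 in TIL03 (5.55% against 5.72%), 715 in TIL09 (9.23% against 9.6%), 508 in TIL11 (7.47% against 7.39%), 411 in TIL14 (8.09% against 8.79%) and 1475 in TIL25 (9.80% against 9.76%). TIL25, with the most private sites tested, thus led in number, and TIL09 and TIL25 in share. Leaf calls numbered 319 in TIL03 (6.39% against 5.84%), 502 in TIL09 (6.92% against 6.87%), 449 in TIL11 (6.85% against 6.87%), 241 in TIL14 (5.05% against 5.51%) and 902 in TIL25 (6.59% against 6.25%). Stem calls numbered 413 in TIL03 (7.75% against 7.83%), 482 in TIL09 (6.46% against 6.49%), 501 in TIL11 (7.45% against 7.13%), 361 in TIL14 (7.21% against 7.92%) and 769 in TIL25 (5.40% against 5.19%). Over the 6 lines without the 3 libraries the private counts were 3536 in ear (7.71% against 7.78%), 2689 in leaf (6.23% against 6.12%) and 2828 in stem (6.27% against 6.37%). Without replicate 1 of each cross the counts over the 6 lines fell to 1468 in ears, 742 in leaves and 451 in stems. These were 3.54%, 1.99% and 1.16% of tested private sites, against 3.44%, 1.76% and 1.10% of shared sites. Without replicate 2 the counts were 1543, 600 and 607 (3.66%, 1.59% and 1.52%, against 3.67%, 1.36% and 1.59% of shared sites). The counts thus depended on the libraries kept.

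**Figure D5:**
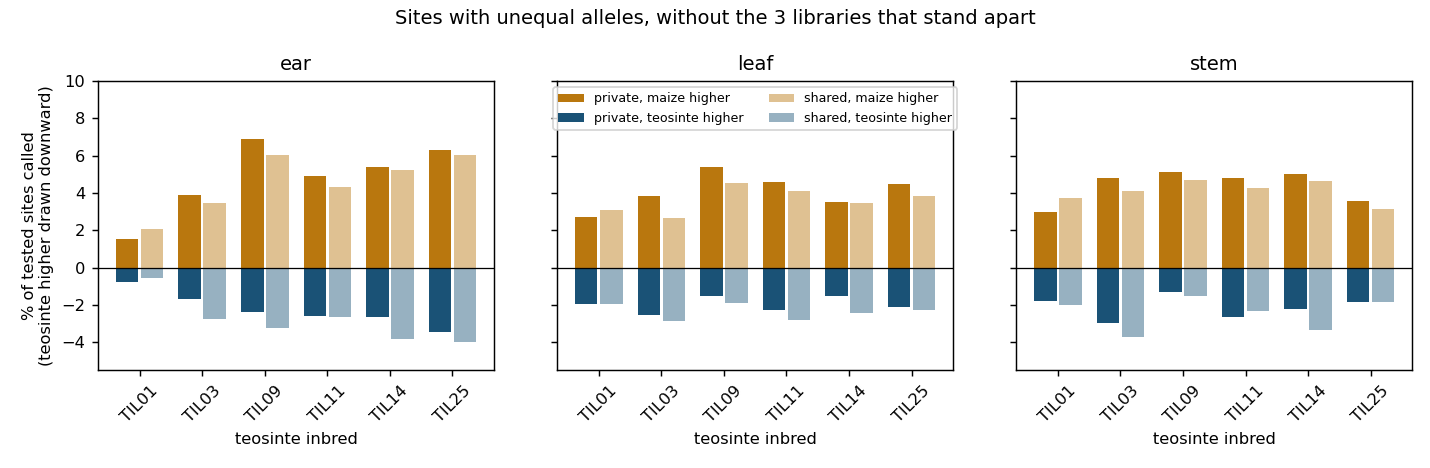
Percent of tested sites called unequal by edgeR (y axis), with the maize allele higher drawn upward and the teosinte allele higher downward, at private and shared sites, by teosinte inbred (x axis) and tissue (panels), without the 3 libraries. Bars upward are longer than bars downward in every line and tissue, except at shared sites of TIL03 in leaf (131 calls upward and 140 downward).

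Most private calls were made in 1 tissue. Of 5289 private sites called in at least 1 tissue, 3173 were called in 1, 1111 in 2 and 1005 in all 3, though not every site was deep enough to be tested in each tissue. Of the sites called in all 3, 1003 went the same way, 803 with the maize allele higher and 200 with the teosinte allele higher. Only 10 were called in opposite directions in different tissues. The calls fell in 4103 genes, and among 847 genes with 2 or more called private sites, 65 held both directions. Leaving out the 3 libraries gave 5719 called sites, 3454 in 1 tissue, 1196 in 2 and 1069 in all 3. These overlaps and directions were not counted at shared or all sites, so they cannot be read as particular to private sites.

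Genes with a called private site leaned the same way in the F1s of the other teosinte lines. In ear, genes whose private site was called with the maize allele higher had a median teosinte share of 47.4% (TIL01, 88 genes) to 48.4% (TIL09, 414 genes) over the other lines' crosses. Genes called with the teosinte allele higher had medians of 51.4% (TIL09, 142 genes) to 53.9% (TIL03, 70 genes), and genes tested but not called had 49.6% to 49.8%. The 3 libraries were left out of these values. The other crosses share maize parents with the called ones, so this is a description with no test.

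The deepest private sites with no teosinte read were in TIL09. In GRMZM2G149751 on chromosome 1 at 176842046 (G1535A: B73 base, position counted from 1 at the 5′ end of the transcript, teosinte base), the 9 ear libraries held 2326 maize and 0 teosinte reads, the 8 leaf libraries 4289 and 0, and the 7 stem libraries 9149 and 0. The site overlaps another gene model, so its reads cannot be given to 1 gene. At 736 reads of the gene's 1 other site in ear the teosinte share was 7.61%. In ear F1s of the other lines the same gene had a teosinte share of 40.9% (TIL01) to 59.6% (TIL25).

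The squamosa-promoter-binding gene sbp16 (GRMZM2G169270), a plant transcription factor of the SBP-box family, lies in the same stretch at 189588166. Its private TIL09 allele A3516G had 1 read in ear against 1031 maize reads, 0 in leaf against 312 and 0 in stem against 674, with edgeR adjusted p-values of 7.47e-22, 3.4e-12 and 3.57e-11. TIL09 itself gave 0 reads at the site and its maize partners 1151. The gene's 2 other sites had a teosinte share of 34.1% in ear, against 0.146% at its 4 private sites.

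Lines other than TIL09 had genes of the same kind. In TIL03, GRMZM2G009683 (chromosome 6, 114442049, T875G) had 798, 1064 and 900 maize reads in ear, leaf and stem and 0 teosinte reads in every library. In TIL11, GRMZM2G152688 (chromosome 3, 230904903, T790C) had 518, 377 and 574 against 0, and in TIL14, GRMZM2G005082 (chromosome 3, 199623932, T1194C) had 1258, 215 and 604 against 0. In TIL25, GRMZM2G133721 (chromosome 10, 111861406, C201T) had 1128, 1682 and 3232 maize reads against 1, 0 and 2. The teosinte parent had 0 reads at each of these 4 sites. The TIL11 site lies in the stretch of chromosome 3 from 225000001 to 235000000, where 20 of 52 private TIL11 sites were nearly absent. In TIL01, GRMZM2G137582 (chromosome 6, 102229509, T2377C) had 60 maize and 0 teosinte reads in ears, 244 and 4 in leaves and 162 and 1 in stems with all libraries, and 41 and 0, 227 and 4, and 121 and 1 without the 3. At the gene's 4 other sites, without the 3 libraries, 30.3% of 76 ear reads were teosinte.

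The reverse case was rarer. In ear the maize allele was nearly absent at 0.0227% to 0.133% of private sites, depending on the line, and the teosinte allele at 0.403% to 2.04%. In TIL03, GRMZM2G370991 (chromosome 5, 186873708, G1526A) had 0 maize reads against 103 teosinte reads in ears, 36 in leaves and 92 in stems. In TIL25, GRMZM2G446865 (chromosome 3, 95873676, G180A) had 0 maize reads against 943, 405 and 574. The maize partners had 0 reads in their own libraries at both sites. In TIL14, AC197382.4_FG002 (chromosome 4, 203228699, C500A) had 45, 115 and 33 teosinte reads against 0, 1 and 0 maize reads, and in TIL11, GRMZM5G816417 (chromosome 5, 186401253, A25G) 67, 35 and 27 against 0. In TIL09, GRMZM2G136313 (chromosome 1, 182296169, C709T) had 27, 36 and 43 teosinte reads and 0 maize reads, inside the stretch of chromosome 1 where most private TIL09 alleles were low.

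Some genes with a symbol were also called in all 3 tissues, at 1 private site each, and the gene's other sites did not always move with that site. The lipoxygenase gene lox11 (GRMZM2G009479), a member of the family that oxygenates fatty acids, had a private TIL09 allele G2923A at chromosome 5, 123205817 with 8 teosinte and 143 maize reads in ears, 0 and 50 in leaves and 29 and 372 in stems. Over the gene's 3 private sites together the teosinte share was 33.3%, 28.3% and 37.6%, and at its 2 other sites 37.6%, 28.3% and 38.3%, so this site stood far below the rest of the gene. Lipoxygenase genes form a family of similar sequence, and values at sites where copies share reads are uncertain. The TIL11 allele of the aldehyde oxidase gene AO2 (GRMZM5G899851, A1358G at chromosome 5, 4590726) had 0 reads in ear against 115 maize reads, 2 in leaf against 73 and 12 in stem against 142. The TIL11 allele of the DNA methyltransferase gene met5 (GRMZM2G005310, A1687G at chromosome 2, 10344820) had 291, 93 and 232 reads in ear, leaf and stem against 472, 196 and 477 maize reads, a share of 38.1%, 32.2% and 32.7%. Over its 5 private sites the share was 47.5%, 42.3% and 43.1%, and at its 2 other sites 41.4%, 37.9% and 41.0%. The TIL25 allele of IPP (GRMZM2G061928, A1135T at chromosome 2, 24614446) was the higher one at this site, with 561, 327 and 731 reads against 365, 210 and 418. Over the gene's 4 private sites the share was 48.7%, 50.3% and 49.8%, and at its 1 other site 35.4%, 36.9% and 36.6%, the opposite direction, so no direction can be given for the gene.

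The gene with the most private sites in each line ranged from nearly equal alleles to no teosinte read. TIL09 held 20 private sites in GRMZM2G386802, with a private share of 47.0% over 2579 ear reads. TIL11 held 19 in GRMZM2G122750, with 56.6% over 5832, and at its site C4476A the teosinte allele was higher in ear and stem (edgeR adjusted p = 0.00019 and 0.000346). TIL03 held 15 in GRMZM2G403151 (48.1%), TIL01 13 in GRMZM2G097434 (33.4% without the 3 libraries) and TIL14 13 in GRMZM2G070633 (54.3%). TIL25 held 28 in GRMZM2G312033, where none of the 267 ear, 112 leaf and 93 stem reads at private sites was from the teosinte allele, and none of the 92, 23 and 21 reads at the gene's 9 other sites.

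Among known domestication candidates, 4 genes held a private site. The MADS-box gene zagl1 (GRMZM2G026223) held 1 in TIL01, TIL09 and TIL11 and 2 in TIL25, and at the deepest private site of each line only the TIL25 indel TCAGGC1340C was called, with 165 teosinte and 278 maize reads in ear (edgeR adjusted p = 0.00111) and 25 and 88 in leaf (adjusted p = 0.000584). The shares in TIL01 were 38.2% in ear and in TIL11 41.3%, and neither passed (edgeR adjusted p = 0.202, or 0.0173 without the 3 libraries, and 0.0212). The TIL09 and TIL11 sites lie in 2 gene models each, so their reads cannot be given to 1 gene. For the MADS-box gene zmm19 (GRMZM2G370777) the deepest private site of TIL01, TIL11 and TIL25 did not pass, and that of TIL01 had 847 teosinte and 1368 maize reads in stem with all libraries and 846 and 1124 without the 3. The TIL09 allele C66T of tga1 (GRMZM2G101511), which controls the casing of the kernel, had 13 reads in ear against 8 maize reads and none of either in leaf or stem, and no difference was detectable at this depth. In GRMZM2G070034 the TIL03 allele C651T had 54 reads in ear against 43 maize reads and 11 in leaf against 80, where it was called (edgeR adjusted p = 0.00139). In stem it had 7 against 30, which was not called (edgeR adjusted p = 0.0229). The allele by tissue test missed the threshold there (edgeR adjusted p = 0.0166). The gene's leaf share was also low in F1s of TIL09 (0.677%), TIL14 (4.07%) and TIL11 (13.7%), so it was not particular to the TIL03 allele.

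Tissue changed the allele ratio at few private sites. The edgeR test of allele by tissue called 100 of 52351 private sites (0.191%), against 0.202% of all sites and 0.227% of shared sites. It called 100 of 52200 private sites without the 3 libraries, with a background of 0.204% of all sites. Of the calls with all libraries, 52 were in TIL25, where 0.322% of all sites were called, 24 in TIL03 (0.388%), 10 in TIL11 (0.168%), 7 in TIL09 (0.116%), 7 in TIL14 (0.105%) and 0 in TIL01 (0%). TIL01 had 70 sites at an unadjusted p under 0.05, and 528 without the 3 libraries, again with 0 calls. Without replicate 1 of each cross 7 private sites passed (0.0146% against 0.0107% of shared sites), and without replicate 2 also 7 (0.0142% against 0.0271%). Simulated TIL11 sites with a change of 1 on the log2 scale in leaf alone were recovered in 40% of cases in this test. The changed sites had 100 reads or more in leaf, so recovery at shallower tested sites is not known.

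The lipoxygenase gene lox5 (GRMZM2G102760) was the named gene with the clearest tissue change. At its private TIL25 site G1811A (chromosome 5, 12275841) the 9 ear libraries held 963 maize and 902 teosinte reads, with a teosinte share of 32.3% to 57.0% and a median of 50.3%. The 6 stem libraries held 1051 and 972, from 29.5% to 65.9% with a median of 47.1%. The 7 leaf libraries held 242 and 40, from 0% to 30.3% with a median of 0%, and all 7 lay below the ear median. The allele by tissue test had an edgeR adjusted p of 0.000538. In F1s of the other lines the gene's own sites gave a leaf share of 24.8% against 35.1% in ear in TIL09. It was 30.7% against 35.4% in TIL11 and 41.4% against 42.0% in TIL03. Leaf lay above ear in TIL01 (57.6% against 37.8%) and TIL14 (36.5% against 28.3%). As for lox11, values of lox5 and lox1 are uncertain at sites where copies of the family share reads.

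The TIL03 allele of lox1 (GRMZM2G156861, C2614T at chromosome 3, 168698849) was low in ear and leaf, with 40 and 123 reads against 449 and 667 maize reads, and nearer to equality in stem with 2016 against 2924, but the tissue test missed the threshold (edgeR adjusted p = 0.0136).

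Chosen after their values were seen as the site with the smallest p of the tissue test in each line, 5 more genes had a strong tissue change. In TIL03, GRMZM2G152548 (G1618AG, chromosome 5, 10230508) had a teosinte share from 45.8% to 76.0% in 9 leaf libraries and from 7.1% to 28.6% in 8 ear libraries, so that the tissues did not overlap, with 887 teosinte and 517 maize reads in leaf and 13 and 94 in ear (edgeR adjusted p = 3.64e-08). In the other lines that list the gene the share was higher in leaf than in ear too, 56.5% against 32.8% in TIL01, 63.7% against 43.2% in TIL14, 61.2% against 41.6% in TIL25 and 46.0% against 43.9% in TIL09. In TIL11, GRMZM2G079805 (G284A, chromosome 1, 216157868) had no maize read in leaf and 200 teosinte reads, and in ear 75 and 195. Its leaf share in the other 5 lines was 93.7% to 97.7% and its ear share 57.7% to 79.9%.

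In TIL25, GRMZM2G126397 (G743T, chromosome 3, 184435171) was the deepest of these, with 8348 teosinte and 4993 maize reads in ear, 4805 and 3728 in stem and 1587 and 2015 in leaf (edgeR adjusted p = 8.94e-08), and the 7 leaf libraries, at 30.7% to 51.3%, lay below all 9 ear libraries, at 59.1% to 65.6%. In TIL14, GRMZM2G359952 (T1338A, chromosome 8, 22978283) had 228 teosinte and 9 maize reads in leaf and 37 and 53 in ear. In TIL09, GRMZM2G047613 (T604A, chromosome 8, 61648861) had 43 and 2 in leaf and 1 and 19 in ear.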

How the data were processed

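The authors deposited read counts per library and lane, where each line is a site on a transcript. They aligned RNA-seq reads, perfect alignments only, to combined parental transcriptomes built on AGPv2, and kept sites with a DNA coverage of 4 or more in both parents and no heterozygous call within a read length of 88 bases; the deposited counts are not normalized. Each position was counted once, on 1 transcript, and the 2 lanes of a library were summed. Members and lists were chosen with earlier results of these data known.

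The share of the teosinte allele was the teosinte reads over all reads at a set of sites in a library, averaged over libraries of a cross and crosses of a line. Lines were compared by exact two-sided sign-flip permutation tests (64 assignments), and crosses by a permutation test of F (100000 draws), with Benjamini-Hochberg adjustment over the 3 tissues (over alleles and tissues for nearly absent sites). Sites with 20 reads or more were tested with edgeR 4.0.16 (glmQLFit with a trended dispersion, R 4.3.3), 1 fit per line and tissue over all sites listed in all its crosses, with the library as a block and an adjusted threshold of 0.005. Of 200 simulated sites with a log2 change of 1 in TIL11 ear, edgeR recovered 74.5% and called 0 of the unchanged sites, DESeq2 1.42.0 recovered 44% and the binomial test 82% with 25 unchanged sites called. Log2 ratios at named sites added 0.5 to each count. Replicates are biological by the labels. Reads carry no molecular identifiers. The sign-flip p-values measure the spread between lines, and those of the between-line F the spread between crosses. The p-values of edgeR and of the index and pool tests measure the spread between libraries. The named genes were those with the largest and smallest maize to teosinte ratio among sites called in all 3 tissues, the same among genes with a symbol in the RefSeq table, the gene with the most private sites, the listed domestication genes, and the symbol-bearing gene with the smallest tissue p, per line. The reference table holds no product names, so a symbol stood in for a product and groups of genes by product were not made. No genome of the files' build was used, so no flanking sequence is shown. Python 3.11.15, numpy 2.4.6, pandas 2.3.3 and scipy 1.17.1 were used. A further tissue marker list was computed and is not reported here.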

Additional observations from a re-analysis of the deposited data

Results flagged for a closer look

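Lines and crosses were examined in 77 groups of 4 to 10 values, and chance marks about 1 group in 20 as holding a value far from the others. In the crosses of TIL01, B73xTIL01 lay far from the other crosses in leaf (private share 25.4468%, private minus shared -10.9243 points) and in stem (25.4001% and -11.2117 points). Through these, TIL01 lay far from the other 5 lines in private share in ear (44.9785%), leaf (43.6782%) and stem (43.3644%) and in private minus shared in leaf (-2.77527 points) and stem (-3.07159 points). Each of these holds 1 of the 3 libraries that stand apart. Without those libraries, TIL01 lay far above the other lines in ear (0.498266 points), and TIL09 lay far below them in private share in leaf (47.316%) and stem (47.5296%). TIL09 also lay far above the other lines in the excess of nearly absent teosinte alleles at private over shared sites in leaf (1.1343 points).

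Without the 3 libraries, the lines differed in private minus shared share in ear (F = 6.1192) and stem (F = 4.0265) by a permutation test over crosses. In stem this did not pass once the windows rich in nearly absent sites were left out too (F = 0.651, adjusted permutation p = 0.665). Those windows were chosen for nearly absent private sites, mostly of TIL09, so a smaller F follows in part from the choice. The allele ratio differed between tissues at 100 private sites by the edgeR allele by tissue test. This was 0.191% of tested private sites, against 0.202% of all sites and 0.227% of shared sites, so it was not particular to private sites.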

How the results depend on the processing

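Some alternatives were chosen after seeing the data. These leave out the 3 libraries, the barcode TAGCT, indels or the windows rich in nearly absent sites. Those windows were chosen for nearly absent private sites, so smaller differences without them follow in part from the choice. No mean difference over the 6 lines given below changed sign, but values of TIL01 did without the 3 libraries. Its private minus shared share went from -1.82 to 0.50 points in ears and from -2.78 to 0.10 in leaves. Its excess of nearly absent teosinte alleles went from 0.077 to -0.020 points in leaves and from 0.039 to -0.079 in stems. The private minus shared share in ear, leaf and stem was no longer past the threshold without the 3 libraries (-0.67, -0.82 and -0.63 points), without TAGCT and the 3 (-0.56, -0.72 and -0.57), with single-base differences and without the 3 (-0.69, -0.75 and -0.62), without the 3 and the windows (-0.59, -0.67 and -0.50) and, in ear, without B73xTIL01 (-0.72). It was also lost in all 3 tissues without replicate 1. Leaving out replicates 1 to 4 in turn gave -1.50 to -0.64 in ears, -1.79 to -0.78 in leaves and -1.62 to -0.58 in stems. Within genes the difference passed with sites shared by 5 or more lines (ear -1.28, leaf -1.56), with the deepest site per gene (ear -1.19, stem -1.001) and with the mean over sites (leaf -1.25, stem -1.08), and without single replicates it ran from -1.37 to -0.66 in ears, -1.60 to -0.89 in leaves and -1.46 to -0.54 in stems.

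The between-line F in ear and stem was 3.51 and 3.56 without B73xTIL01, 6.12 and 4.03 without the 3, and 4.67 and 0.651 without the 3 and the windows, where stem did not pass. In ear, leaf and stem it was 6.63, 2.83 and 2.78 without TAGCT and the 3, and 7.51, 3.28 and 5.85 with single-base differences and without the 3. Nearly absent sites with 20 reads or more passed for the teosinte allele (0.468, 0.481 and 0.424 points) and, in ear, the maize allele (-0.138). 

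Counts of unequal private sites in ear, leaf and stem were 7114, 5307 and 5788 at a threshold of 0.05, 997, 776 and 923 with the libraries of a cross summed, 7588, 8216 and 8378 by the binomial test on summed depth, and 1880, 1362 and 1418 at the deepest site per gene, and 1468 to 3112, 600 to 2428 and 451 to 2534 without single replicates. At 0.05 these were 15.4%, 12.3% and 12.8% of tested private sites, against 15.4%, 11.7% and 12.5% of shared sites. With libraries summed they were 2.16%, 1.79% and 2.04% against 2.16%, 1.63% and 2.00%. By the binomial test they were 16.5%, 19.0% and 18.5% against 16.7%, 18.2% and 18.4%. At the deepest site per gene they were 7.20%, 5.40% and 5.43% against 7.46%, 5.25% and 5.01%. Tissue-dependent private sites numbered 348 at 0.05 (0.665% against 0.647% of shared sites) and 66 at the deepest site per gene (0.223% against 0.285%). Leaving out single replicates gave 7 to 96. The 2 alleles of a library were paired by taking the library as a block. With no replicate block there were 1424 unequal private sites in leaf (3.29% against 2.81% of shared sites) and 49 tissue-dependent ones (0.0936% against 0.0966%). Replicate numbers only name libraries and paired no plants. The cause of these changes was not tested. Depth limits the calls: 16.5% to 18.4% of private sites had no read.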

Other observations

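In the 2 crosses left out, the TIL25 private allele gave unlike levels. In CML103xTIL25 it took 56.7% to 57.6% of reads in 4 libraries, and the shared allele 61.3% to 61.9%. In Mo17xTIL25 it took 0.206% to 2.28% in 4 libraries, and the shared allele 0.512% to 3.25%.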
